A study of Mus musculus with 8 samples.

Results

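The genes described here are 9 members of the intermediate filament family in the mouse germ line. They are the keratin genes *Krt7*, *Krt8*, *Krt18* and *Krt19*, the vimentin gene *Vim*, the nestin gene *Nes*, and the lamin genes *Lmna*, *Lmnb1* and *Lmnb2*. They were chosen by name, all 9 were found, and the table held 21950 genes in all. RNA had been sequenced from 4 pools of primordial germ cell-like cells (d6PGCLCs) and 4 pools of primordial germ cells (PGCs), each pool from an independent experiment. The d6PGCLCs all came from a single female induced pluripotent stem cell line that had been made from adult tail tip fibroblasts and carried the reporters Blimp1-Venus and Stella-ECFP. They were sorted as positive for both reporters on day 6 of differentiation from epiblast-like cells (day 8 of culture). They were induced in medium with BMP4, SCF, LIF and EGF, which was changed before the sort to medium with SCF, LIF and EGF. The PGCs were sorted from the gonads of female C57BL/6J embryos at E12.5 by SSEA1 and integrin β3. Reporters, sorting gate and culture thus all differ along with cell type, and strain background may differ as well. These cannot be told apart here.

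Intermediate filaments are rope-like polymers that give cells and nuclei their mechanical strength. Keratins assemble only as pairs of a type I and a type II chain, and *Krt8* (type II) with *Krt18* (type I) makes the basic filament of simple epithelia, whereas *Krt7* (type II) and *Krt19* (type I) are added in ducts and other simple epithelia. Vimentin forms filaments from a single kind of chain and is typical of mesenchymal and motile cells, and nestin, known from neural and other progenitor cells, joins vimentin filaments. Lamins line the inner nuclear membrane. B-type lamins (*Lmnb1*, *Lmnb2*) are made by most cell types and stay bound to the membrane through a lipid tail, whereas the A-type lamins A and C, both from *Lmna*, accumulate as cells differentiate and stiffen the nucleus.

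The counted reads per library ranged from 7991437 to 12024841. A count of 3 in a library, taken as the limit of what it can show, corresponded to between 0.249 and 0.383 CPM (counts relative to the TMM-scaled library size), a limit that covers counting error only. All 10 germ cell markers were at a mean of at least 1 CPM, and their summed level was 3947 to 4553 CPM in d6PGCLCs and 4512 to 5046 CPM in PGCs. Within this sum 5 were called higher and 3 lower in d6PGCLCs, beside 28.1% and 25.6% of all genes of at least 1 CPM. The lower ones included *Dazl* at 37.7 ± 23.2 CPM against 1262 ± 241.1 CPM and *Ddx4* at 35.5 ± 6.604 CPM against 760.4 ± 92.2 CPM, which mark germ cells once they have reached the gonad. *Prdm1* and *Dppa3*, whose reporters were used in the sort, are among the 10 markers. Both were called higher in d6PGCLCs and were no finding. The following libraries stood apart in other genes. E12.5 PGC replicate 2 held 144 CPM of the heat shock gene *Hspa1a*, against 4.42 to 20.3 CPM in the other PGC pools and 0.305 to 0.747 CPM in the d6PGCLC pools. This stress gene thus also differed between the groups, and its part in the results was not tested. E12.5 PGC replicate 4, labelled female, held 53 counts over 4 Y-linked genes, which had 0 counts in the other 7 libraries. d6PGCLC replicates 2 and 4 held 3.87 and 11.8 CPM of the collagen gene *Col1a1*, against 0.766 and 0.249 CPM in replicates 1 and 3. Results that rest on these pools are given with and without them.

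The members moved in opposite directions. In edgeR's quasi-likelihood test with Benjamini-Hochberg adjustment over all genes, 4 of the 9 were higher in d6PGCLCs (*Krt7*, *Krt19*, *Lmnb1*, *Lmnb2*), and 16.1% of all genes tested were called in that direction at an adjusted p of at most 0.05. A further 3 were lower in d6PGCLCs (*Krt18*, *Vim*, *Nes*), against 15.4% of all genes. *Krt8* and *Lmna* were not called. Of the 7 members that averaged at least 1 CPM over the 8 libraries (all but *Krt19* and *Lmna*), 3 were called higher and 3 lower, beside 28.1% and 25.6% of the genes at that level. Only *Krt7* and *Krt19* also passed an absolute log2 fold change of 2 (2 of 9 members, 6.62% of all genes), and *Krt19* did so only with the small prior count used here and not with a prior count of 2 (1.43). The groups did not overlap in 5 of those 7 members (*Krt7*, *Vim*, *Nes*, *Lmnb1*, *Lmnb2*), where 51.1% of the genes at that level did not overlap. The median log2 fold change was 0.00 over all genes and 0.01 over genes of at least 1 CPM. The pools are bulk samples, in which fewer cells with an mRNA and less of it per cell cannot be told apart.

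**Figure D1:**
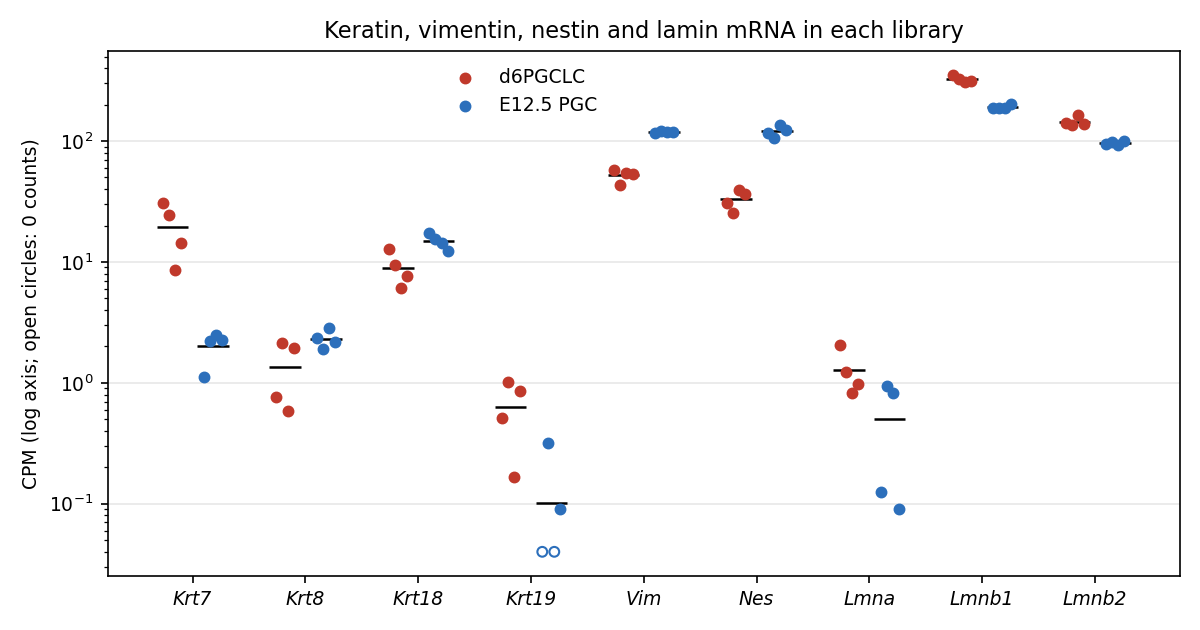
TMM-scaled CPM (log axis) of each member in the 4 d6PGCLC pools (red) and the 4 E12.5 PGC pools (blue), with replicates 1 to 4 from left to right, a bar at the group mean and open circles for 0 counts. *Krt7*, *Vim*, *Nes*, *Lmnb1* and *Lmnb2* have no overlap between the groups, whereas *Krt8*, *Krt18*, *Krt19* and *Lmna* overlap.

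The promoters of the 3 keratin genes of chromosome 15 and of *Vim* and *Nes* are shown because *Krt7* and *Krt18* lie on the same chromosome and changed in opposite directions, while *Krt18*, *Vim* and *Nes* fell together. *Krt7* (chr15:101412403-101427806), *Krt8* (chr15:101996711-102004342) and *Krt18* (chr15:102028216-102032026) lie in this order in GRCm38. Between *Krt7* and *Krt8* are 568904 bases with 23 other keratin genes of the table, and between *Krt8* and *Krt18* are 23873 bases with none of them. *Krt19* lies apart, at chr11:100140810-100145926 among the type I keratins. Each line gives the 120 bases before the annotated start, 5′ to 3′ on the strand of the gene, from RefSeq on GRCm38.p6. The windows are chr15:101412283-101412402 (plus strand, *Krt7*), chr15:102004343-102004462 (minus strand, *Krt8*), chr15:102028096-102028215 (plus strand, *Krt18*), chr2:13574191-13574310 (plus strand, *Vim*) and chr3:87970973-87971092 (plus strand, *Nes*). Capitals mark matches on either strand to 4 motifs. These were the TATA box, searched as TATAAA, the CCAAT box, searched under its own letters, the GC box, searched as GGGCGG, and the motif bound by AP-2 factors, searched as GCCNNNGGC. No matches overlapped.
Krt7: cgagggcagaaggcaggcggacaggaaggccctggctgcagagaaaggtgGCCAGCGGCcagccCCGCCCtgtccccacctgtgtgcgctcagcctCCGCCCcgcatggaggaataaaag
Krt8: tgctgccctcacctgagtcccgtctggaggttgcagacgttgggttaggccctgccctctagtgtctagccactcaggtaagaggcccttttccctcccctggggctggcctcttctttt
Krt18: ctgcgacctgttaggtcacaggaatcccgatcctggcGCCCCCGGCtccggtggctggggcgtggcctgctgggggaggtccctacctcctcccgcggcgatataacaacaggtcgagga
Vim: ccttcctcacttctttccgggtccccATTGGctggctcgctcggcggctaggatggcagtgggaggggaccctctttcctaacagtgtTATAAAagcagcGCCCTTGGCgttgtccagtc
Nes: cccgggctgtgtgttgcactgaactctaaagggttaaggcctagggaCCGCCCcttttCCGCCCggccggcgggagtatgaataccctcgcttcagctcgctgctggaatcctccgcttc
The *Krt7* window held 2 GC boxes, read on the opposite strand, and 1 AP-2 motif. The *Krt18* window held only 1 AP-2 motif, and the *Krt8* window held none, although the products of these genes pair with each other. *Vim* was the only gene of the 5 with a TATA box match, at positions -32 to -27 from the start, and it also held 1 match each to the CCAAT box, on the opposite strand, and to the AP-2 motif. *Nes* held 2 GC boxes, likewise on the opposite strand. Among 32851 promoter windows of the same length, 6.34% held the TATA box letters, 21.3% the CCAAT box, 26.5% the GC box and 7.98% the AP-2 motif. The ratio of observed to expected CpG over the 250 bases before the start was 0.596 for *Krt7*, 0.143 for *Krt8*, 0.527 for *Krt18*, 0.376 for *Vim* and 0.694 for *Nes*, against a median of 0.373 over all promoters. *Krt8* had the fewest CpG sites of these genes, 3 in 250 bases, and *Krt7* the most, with 16. A match to these letters is a description of the sequence and not a binding site. In the GENCODE annotation, longer models of *Krt7* and *Krt8* cover the windows shown for these genes, which may thus lie within the gene. The *Krt7* window also overlaps the antisense gene Gm671 described below.

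*Krt7*, the type II keratin of ducts and other simple epithelia, showed the largest fitted change of the members above 1 CPM. Its level was 31.0, 24.2, 8.63 and 14.4 CPM in d6PGCLC replicates 1 to 4 and 1.12, 2.21, 2.49 and 2.26 CPM in PGC replicates 1 to 4. Every d6PGCLC pool lay above every PGC pool, and the d6PGCLC pools also differed among themselves, with the most in replicate 1 and the least in replicate 3. The group means were 19.6 ± 9.98 and 2.02 ± 0.610 CPM (SD, n = 4), and the fitted log2 fold change was 3.23 (SE 0.34, adjusted p = 1.03e-07). It stayed between 2.92 and 3.48 when each library was left out in turn. In PGCs the counts were low but above the limit, at 9, 21, 27 and 25. In the GENCODE annotation an antisense gene, Gm671 (chr15:101395427-101412311), overlaps the upstream end of a longer *Krt7* model by 1269 bases. Gm671 ends before the *Krt7* start at 101412403 given above. Whether the counting used strand is not given in the sources used here, and a part of Gm671 reads in the *Krt7* value was not tested.

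*Krt18*, the type I keratin of simple epithelia, went the opposite way. It was at 12.8, 9.37, 6.14 and 7.64 CPM in the d6PGCLC pools and at 17.3, 15.4, 14.3 and 12.3 CPM in the PGC pools. The groups touched, since d6PGCLC replicate 1 lay just above PGC replicate 4. The means were 8.98 ± 2.85 and 14.8 ± 2.11 CPM (SD, n = 4), and the log2 fold change was -0.73 (SE 0.20, adjusted p = 7.81e-03). Without d6PGCLC replicates 2 and 4 it was -0.68 and no longer called (adjusted p = 0.0545), an alternative chosen after seeing the data.

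*Krt8*, the type II partner of *Krt18*, was low but above the limit in all libraries. Its counts were 6, 21, 7 and 16 in d6PGCLCs and 19, 18, 31 and 24 in PGCs, or 0.766, 2.14, 0.581 and 1.94 CPM against 2.37, 1.89, 2.86 and 2.17 CPM. The d6PGCLC pools fell into a low pair, replicates 1 and 3, and a pair within the range of the PGCs, replicates 2 and 4. The log2 fold change was -0.79 (SE 0.39) and was not called (adjusted p = 0.141). Without d6PGCLC replicate 2 it was -1.13 and called (adjusted p = 0.0498), and without replicates 2 and 4 together, an alternative chosen after seeing the data, it was -1.80 (adjusted p = 5.95e-03). It was -0.62 without replicate 1 (adjusted p = 0.262) and -0.51 without replicate 3 (adjusted p = 0.402). Replicates 2 and 4 are the d6PGCLC pools with most *Col1a1* and also with most *Col3a1*. *Col3a1* was at 3.16 and 6.67 CPM in them, against 1.28 and 0 CPM in replicates 1 and 3. The other 11 markers of the gonadal somatic list summed to 1.73 and 2.91 CPM in replicates 2 and 4. They summed to 1.79 and 1.49 CPM in replicates 1 and 3. The d6PGCLCs had been collected before any gonadal cells were added. The part of cells that make collagen in the *Krt8* value was not tested. A processed pseudogene, Krt8-ps, lies at chr7:23357125-23358069, and reads that match both places equally were not counted for *Krt8*. In the GENCODE annotation the noncoding gene Gm36026, from chr15:102004212, overlaps *Krt8* by 271 bases on the opposite strand. The *Krt8* model there extends beyond the end at 102004342 given above. Neither the pseudogene nor Gm36026 was tested.

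*Krt19*, a type I keratin that lacks most of the tail domain, was at or below the limit in all PGC pools, with 0, 3, 0 and 1 counts. In the d6PGCLC pools it had 4, 10, 2 and 7 counts, so that replicate 3 was also below the limit. Replicates 2 and 4, which held most *Col1a1*, again held the most, and the part of this in the result was not tested. The 23 summed counts of d6PGCLCs against 4 of PGCs gave a depth-adjusted ratio of 5.98 (exact 95% interval 2.04 to 23.8, counting error only). The fitted log2 fold change was 2.47 (SE 1.00, adjusted p = 0.0288), and 1.43 with a prior count of 2. The call did not hold without some of the single libraries. The adjusted p was 0.118 without d6PGCLC replicate 2, 0.0730 without d6PGCLC replicate 4, 0.0702 without PGC replicate 1, 0.0928 without PGC replicate 3 and 0.0655 without PGC replicate 4, with log2 fold changes between 2.06 and 2.41. The call held without d6PGCLC replicate 1 (2.54, adjusted p = 0.0271), d6PGCLC replicate 3 (2.82, adjusted p = 0.0115) and PGC replicate 2 (3.78, adjusted p = 9.17e-03). It also held without PGC replicates 2 and 4 together (adjusted p = 0.0108). The remaining PGC pools then had 0 counts, so that the fitted 5.58 depends on the prior count and is no measured fold. Without d6PGCLC replicates 2 and 4 together the log2 fold change was 1.51 (adjusted p = 0.461). The log2 ratio of *Krt19* to *Krt18* was higher in d6PGCLCs by 3.18, a value that depends on the count added for pools at 0, and did not pass the exact permutation test after adjustment (adjusted p = 0.0571 over 4 ratios).

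Levels of different genes were compared as RPKM, the TMM-scaled CPM divided by the exonic length in kilobases of the isoform counted. In d6PGCLCs *Krt7* was the most abundant of the 4 keratins in every pool. It was at 15.9, 12.4, 4.43 and 7.41 RPKM, and *Krt18* at 7.60, 5.58, 3.65 and 4.55 RPKM, so that the ratio of *Krt7* to *Krt18* was 2.10, 2.23, 1.21 and 1.63. In PGCs this ratio was 0.0559, 0.124, 0.150 and 0.159, and *Krt18* led. The share of *Krt7* in the summed keratin RPKM was 59.3% ± 6.38 in d6PGCLCs and 9.63% ± 3.34 in PGCs (SD, n = 4). The sum itself was 24.2, 19.6, 8.46 and 13.4 RPKM in d6PGCLCs and 11.99, 11.4, 11.1 and 9.52 RPKM in PGCs, and the groups overlapped. The groups thus differed in the make-up of the mRNA of these 4 keratins, without a separation in its summed amount.

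The type I gene *Krt18* exceeded its type II partner *Krt8* in RPKM in every library. *Krt8* had only 6 to 31 counts per library, and reads shared with its pseudogene were not counted. The ratio was 21.5, 5.65, 13.6 and 5.07 in d6PGCLCs and 9.43, 10.4, 6.44 and 7.30 in PGCs. On the log2 scale its mean was 3.26 ± 1.01 and 3.05 ± 0.32 (SD, n = 4), a difference of 0.21 that an exact two-sided permutation test did not separate from 0 (p = 0.686, adjusted p = 0.686 over 4 ratios). The difference depended on single d6PGCLC pools. It was -0.18 without replicate 1, 0.47 without replicate 2, 0.04 without replicate 3 and 0.52 without replicate 4, and, in an alternative added after seeing the data, 1.05 without replicates 2 and 4 together. *Krt7* and *Krt8* (type II) together exceeded *Krt18* and *Krt19* (type I) in all d6PGCLC pools and in no PGC pool. Other type I keratins were left out, such as *Krt23* and *Krt10*, with means of 1.42 and 1.05 RPKM in d6PGCLCs. Total type I and type II mRNA were thus not compared. Proteins were not measured.

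**Figure D2:**
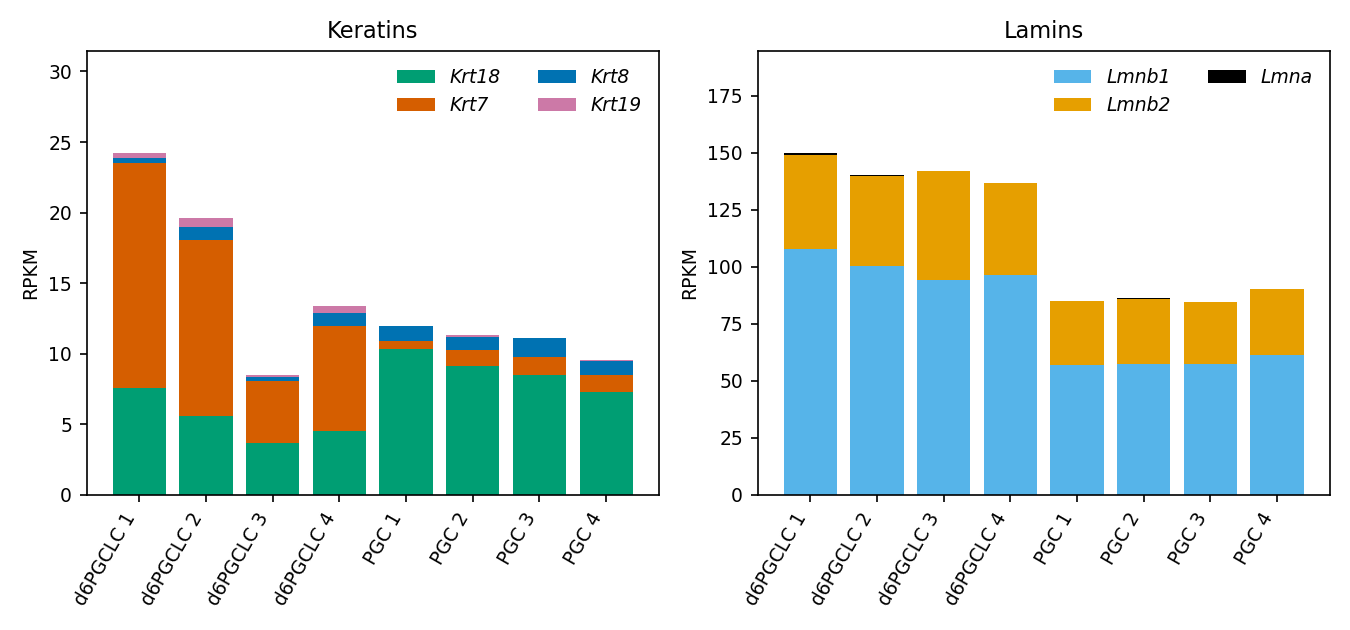
Stacked RPKM of the 4 keratin genes (left) and the 3 lamin genes (right) in each pool, from 0. The *Krt7* segment is 52.4% to 65.8% of the keratin bar in d6PGCLCs and 4.81% to 12.2% in PGCs, and the *Lmna* segment is hardly visible in any pool.

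*Vim*, the filament gene of mesenchymal and motile cells, was lower in d6PGCLCs. It was at 57.2, 43.1, 54.4 and 53.6 CPM in the d6PGCLC pools and at 116.9, 121.2, 119.7 and 119.9 CPM in the PGC pools. The PGC pools were nearly equal, and no d6PGCLC pool reached them. The means were 52.0 ± 6.18 and 119.4 ± 1.81 CPM (SD, n = 4), a 2.30-fold difference (log2 fold change -1.20, SE 0.10, adjusted p = 7.31e-09). The gene is at chr2:13574311-13582826.

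*Nes* (chr3:87971093-87980451), which encodes nestin, fell further. It was at 30.5, 25.4, 39.2 and 36.7 CPM in d6PGCLCs and at 117.3, 105.8, 135.0 and 124.6 CPM in PGCs, again with no overlap. The means were 33.0 ± 6.19 and 120.6 ± 12.3 CPM (SD, n = 4), a 3.66-fold difference (log2 fold change -1.87, SE 0.13, adjusted p = 2.48e-10). Per length, *Nes* stood below *Vim* in both groups, at 5.32 ± 1.00 RPKM against 23.7 ± 2.82 RPKM in d6PGCLCs and 19.5 ± 1.99 RPKM against 54.4 ± 0.827 RPKM in PGCs. The ratio of *Nes* to *Vim* RPKM was 0.224 ± 0.0304 in d6PGCLCs and 0.358 ± 0.0376 in PGCs (SD, n = 4), without overlap.

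The share of vimentin in the summed RPKM of *Vim* and the 4 keratin genes described here was 51.9, 49.98, 74.5 and 64.6% in d6PGCLCs and 81.6, 83.0, 83.1 and 85.2% in PGCs. The shares did not overlap, but the difference of -23.0 percentage points did not pass the exact permutation test after adjustment (p = 0.0286, the smallest that 4 against 4 can give, adjusted p = 0.0571 over 4 ratios). They varied more among d6PGCLC pools (60.2% ± 11.5) than among PGC pools (83.2% ± 1.46, SD, n = 4), and the d6PGCLC pools with most *Krt7*, replicates 1 and 2, had the lowest share.

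Markers of other cells were called in both directions. Their counts of called genes stand beside 16.1% higher and 15.4% lower among all genes. The summed level of 5 markers of mesonephric and coelomic epithelium was 0.415 to 1.28 CPM in d6PGCLCs and 3.96 to 7.05 CPM in PGCs, with 2 of the 5 called lower in d6PGCLCs and *Emx2* at 0 in all d6PGCLC pools. These sums were mostly *Pax8*, and without it they overlapped, at 0 to 0.638 CPM and 0.249 to 1.37 CPM. Of 13 markers of gonadal somatic cells, 6 were lower and 1 higher in d6PGCLCs, and the summed ranges overlapped, at 1.74 to 21.3 CPM and 5.87 to 14.7 CPM. Without *Col1a1* and *Col3a1* they did not, at 1.49 to 2.91 CPM in d6PGCLCs and 5.69 to 11.4 CPM in PGCs. *Wt1*, a marker of the gonadal soma and the coelomic epithelium, had 2, 2, 0 and 0 counts in d6PGCLCs and 12, 16, 9 and 5 in PGCs. Their part in the lower *Krt18*, *Vim* and *Nes* was not tested. Of 5 markers of fibroblasts, the cells from which the iPSC line was made, 1 was lower and 4 were not called. Their sums were 0.255 to 3.03 CPM in d6PGCLCs and 0.993 to 2.03 CPM in PGCs. Summed counts in d6PGCLCs and PGCs were 0 and 4 for *Thy1*, 6 and 27 for *Twist1*, and 20 and 26 for *Col6a1*. They were 15 and 3 for *Postn* and 6 and 4 for *Lum*. Among 7 trophoblast markers 5 were lower in d6PGCLCs (18.8 to 36.7 CPM against 56.6 to 76.0 CPM), whereas *Krt7*, which trophoblast also makes, was higher. Further lists with genes higher in d6PGCLCs were those of endothelium (2 of 8), blood (1 of 4), endoderm (1 of 5, with 2 lower) and epiblast-like cells (1 of 4, with 2 lower). The endothelial sums of 628.6 to 746.8 CPM against 393.1 to 466.7 CPM were nearly all *Pecam1*, which germ cells also express. Without it they were 27.7 to 40.7 CPM against 19.3 to 34.4 CPM. *Cdh5*, the other endothelial gene called, was at 10.97 CPM in d6PGCLCs against 4.185 CPM in PGCs (adjusted p = 1.93e-04). *Emcn* had 0 counts in all d6PGCLC pools and 0, 6, 0 and 0 counts in the PGC pools, and was not called. The endodermal sums of 44.4 to 98.3 CPM against 50.1 to 59.2 CPM were nearly all *Cxcr4*, likewise a gene of germ cells, and without it were 0.996 to 1.82 CPM against 3.41 to 5.16 CPM. Those of blood were 1.08 to 3.06 CPM against 0 to 0.737 CPM, and those of epiblast-like cells 20.0 to 34.8 CPM against 20.1 to 24.5 CPM. Of 5 mesoderm markers 1 was higher and 4 were lower (2.18 to 3.56 CPM against 3.25 to 3.89 CPM). The part of these cells in the higher *Krt7*, *Lmnb1* and *Lmnb2* was not tested.

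**Figure D3:**
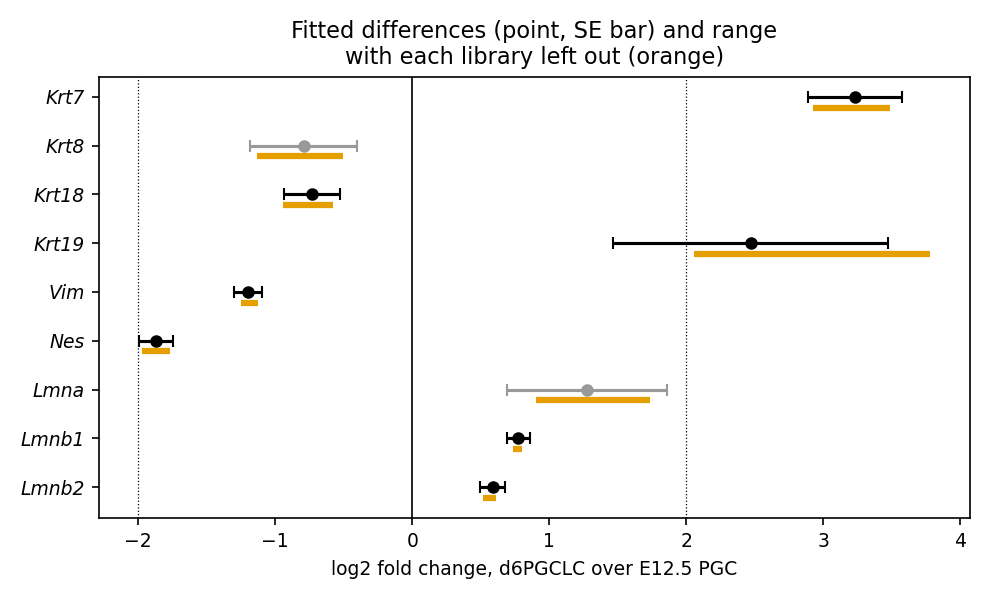
Log2 fold change of each member, d6PGCLC over E12.5 PGC (points, with SE bars; black where called at an adjusted p of at most 0.05, grey where not), and the range when each library is left out in turn (orange). *Krt7* and *Krt19* lie beyond 2, and *Krt8* and *Lmna* are the members not called.

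The lamin mRNA was almost wholly of the B type. *Lmnb1*, on chromosome 18, was the most abundant member per length in both groups and was higher in d6PGCLCs, at 354.6, 329.1, 309.0 and 316.1 CPM against 187.5, 188.5, 188.7 and 201.0 CPM. No PGC pool came near the d6PGCLC pools. The means were 327.2 ± 20.1 and 191.4 ± 6.41 CPM (SD, n = 4), a 1.71-fold difference (log2 fold change 0.77, SE 0.08, adjusted p = 2.17e-07).

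*Lmnb2*, the other B-type lamin gene (chr10:80901363-80918245), changed in the same direction and to a like extent. It was at 140.8, 136.0, 164.0 and 138.3 CPM in d6PGCLCs and at 95.2, 98.0, 92.6 and 100.2 CPM in PGCs, without overlap. The means were 144.8 ± 13.0 and 96.5 ± 3.31 CPM (SD, n = 4), a 1.501-fold difference (log2 fold change 0.59, SE 0.09, adjusted p = 3.29e-05). The ratio of *Lmnb1* to *Lmnb2* RPKM was 2.38 ± 0.292 in d6PGCLCs and 2.08 ± 0.0518 in PGCs, and the groups overlapped because d6PGCLC replicate 3, at 1.97, lay below all PGC pools. The summed RPKM of the 3 lamin genes was 136.9 to 149.8 in d6PGCLCs and 84.8 to 90.4 in PGCs.

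*Lmna* (chr3:88481148-88509932), the source of lamins A and C, was at the edge of detection. It had 16, 12, 10 and 8 counts in d6PGCLCs and 1, 9, 9 and 1 counts in PGCs, or 2.04, 1.22, 0.830 and 0.970 CPM against 0.1248, 0.947, 0.830 and 0.0903 CPM. PGC replicates 1 and 4 were below the limit of 3 counts, whereas replicates 2 and 3 were within reach of the d6PGCLC pools. The log2 fold change of 1.28 (SE 0.58) was not called (adjusted p = 0.0972). It was called without PGC replicate 2, the pool with most *Hspa1a* (1.74, adjusted p = 0.0445), but not without PGC replicates 2 and 4 together (1.25, adjusted p = 0.185). The summed 46 counts against 20 gave a depth-adjusted ratio of 2.39 (exact 95% interval 1.39 to 4.26, counting error only). *Lmna* made up 0.553, 0.353, 0.237 and 0.287% of the lamin RPKM in d6PGCLCs and 0.0596, 0.445, 0.397 and 0.0405% in PGCs, so that A-type lamin mRNA was under 1% of lamin mRNA in every pool. The groups overlapped in this share (exact permutation test p = 0.400, adjusted p = 0.533 over 4 ratios). The counts do not separate lamin A from lamin C transcripts, and the isoform counted was chosen at random by the authors.

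By RPKM the order in d6PGCLCs was *Lmnb1* (99.7 ± 6.11), *Lmnb2* (42.1 ± 3.78), *Vim* (23.7 ± 2.82), *Krt7* (10.1 ± 5.13), *Krt18* (5.34 ± 1.69), *Nes* (5.32 ± 1.00), *Krt8* (0.626 ± 0.368), *Lmna* (0.513 ± 0.220) and *Krt19* (0.394 ± 0.234). Of these neighbours, *Krt7*, *Krt18* and *Nes* overlapped, and so did the last 3. In PGCs the order was *Lmnb1* (58.3 ± 1.95), *Vim* (54.4 ± 0.827), *Lmnb2* (28.1 ± 0.964), *Nes* (19.5 ± 1.99), *Krt18* (8.82 ± 1.26), *Krt8* (1.07 ± 0.188), *Krt7* (1.04 ± 0.314), *Lmna* (0.202 ± 0.184) and *Krt19* (0.0629 ± 0.0923), where *Krt8* with *Krt7* and *Lmna* with *Krt19* overlapped. *Vim* thus ranked below *Lmnb2* in d6PGCLCs and above it in PGCs. Of all genes, 83.0% were below *Vim* in d6PGCLCs and 92.7% in PGCs, 72.3% and 53.2% were below *Krt7*, and 96.7% and 93.3% were below *Lmnb1*.

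The genes whose level over the 8 libraries was most like that of a member were sought among 8192 genes that averaged at least 10 CPM, by Pearson's r of log2(CPM + 1). They were *Cachd1* (r = 0.998), *Azi2* (0.994) and *Tpbg* (0.994) for *Vim*, *Evl* (0.921), *Tsg101* (0.914) and *Trdmt1* (0.913) for *Krt8*, and *Rilpl1* (0.958), *Arhgef39* (0.937) and *Thumpd2* (0.895) for *Lmna*. These are descriptions across libraries that fall into a pair of groups, so that any gene that differs between the groups as *Vim* does ranks high. *Krt8* and *Lmna* overlapped between the groups and had low counts. For them a high r among 8192 genes over 8 libraries can arise from counting noise.

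Most other keratins had few or no counts. Of 49 other keratin genes, 27 had 0 counts in all libraries and 41 had at most 3 counts in any library, 1 was called higher and 4 lower, against 16.1% and 15.4% of all genes. The 4 became 1 with a filter on low counts (filterByExpr), and 2 with the replicate block or without d6PGCLC replicate 2, d6PGCLC replicate 3 or PGC replicate 3. The 1 became 2 without PGC replicate 2. *Krt23*, a type I keratin of epithelia, was at 2.17, 1.12, 1.91 and 2.67 CPM in d6PGCLCs and 0.374, 0.526, 0.0922 and 0.271 CPM in PGCs (log2 fold change 2.62, SE 0.54, adjusted p = 1.94e-04). *Krt222*, a keratin-like gene, was at 1.15, 2.14, 0.830 and 0.849 CPM against 9.73, 10.1, 8.67 and 9.48 CPM (log2 fold change -2.92, SE 0.29, adjusted p = 3.24e-08). Per length, *Krt222* stood above *Krt7* and *Krt8* in PGCs, at 3.09 ± 0.198 RPKM, and *Krt23* had a higher mean than *Krt8* and *Krt19* in d6PGCLCs, at 1.42 ± 0.466 RPKM. These names were taken after their values had been seen.

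Among 10 other intermediate filament genes, 2 were higher and 2 lower, near the 16.1% and 15.4% of all genes. Their median log2 fold change was 0.07 among those of at least 1 CPM. *Des* (desmin, the muscle filament) was at 33.1 ± 9.70 CPM against 12.2 ± 2.11 CPM (SD, n = 4; log2 fold change 1.43, adjusted p = 3.64e-06), and *Synm*, which encodes the desmin and vimentin partner synemin, also rose (2.17, adjusted p = 2.89e-05). The neuronal filament genes *Nefh* (-2.89, adjusted p = 4.13e-10) and *Ina* (-0.87, adjusted p = 1.06e-04) fell, as did nestin, while *Nefl* and *Nefm* were not called.

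Plakins and desmosomal plaque proteins tie keratin and other filaments to junctions and to the cell cortex. Of 12 genes for plakins and desmosomal plaque proteins, 6 were higher and 2 lower in d6PGCLCs. The median log2 fold change was 0.54 among the 11 of at least 1 CPM, a level at which 28.1% of all genes were higher and 25.6% lower. *Eppk1* (epiplakin, which binds keratins) was at 39.7, 23.2, 22.5 and 26.4 CPM in d6PGCLCs and at 1.25, 1.79, 1.48 and 1.17 CPM in PGCs, a log2 fold change of 4.28 (SE 0.26, adjusted p = 1.11e-11). *Pkp3* (plakophilin 3), *Jup* (plakoglobin) and *Ppl* (periplakin) rose by 2.39, 2.35 and 1.88 on the log2 scale, with adjusted p of 1.92e-07, 1.16e-08 and 4.51e-06. *Plec*, the linker plectin, rose by 1.86 (adjusted p = 3.73e-09) and was named after its value had been seen. Likewise named afterwards is *Pkp2* (plakophilin 2), which rose by only 0.54 (adjusted p = 1.01e-03). It was the most abundant of the list per length in d6PGCLCs, at 52.7 ± 10.8 RPKM. *Dsp* (desmoplakin, which anchors keratins at desmosomes) was more abundant per length than *Eppk1*, at 28.5 ± 3.09 RPKM against 2.25 ± 0.646 RPKM in d6PGCLCs. It fell slightly, from 425.1 ± 59.1 CPM in PGCs to 300.5 ± 32.6 CPM in d6PGCLCs (SD, n = 4; log2 fold change -0.50, adjusted p = 6.24e-04). *Macf1*, which links actin and microtubules, fell as well (-1.54, adjusted p = 5.65e-08).

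Of 15 measured partners of the lamina, 4 were higher and 3 lower, shares near the 28.1% and 25.6% of all genes of at least 1 CPM. Their median log2 fold change was -0.03. *Syne3* (nesprin 3, which connects plectin and intermediate filaments to the nuclear envelope) was at 12.6, 6.82, 17.7 and 17.1 CPM in d6PGCLCs and at 2.50, 2.00, 1.48 and 1.62 CPM in PGCs (log2 fold change 2.85, adjusted p = 7.94e-08). *Nrm* (0.67, adjusted p = 1.34e-04), *Tmpo*, the gene of the lamina-associated polypeptides 2 (0.64, adjusted p = 3.28e-06), and *Syne2* (0.42, adjusted p = 5.93e-03) rose less. *Lemd3* (-0.68, adjusted p = 3.44e-05), *Lemd2* (-0.55, adjusted p = 1.93e-04) and *Tor1a* (-0.40, adjusted p = 0.0152) fell. *Lbr*, the lamin B receptor, had means of 251.6 and 251.5 CPM and was not called. Of 5 genes for the processing of the lamin tail, *Zmpste24*, the protease that matures prelamin A (0.56, adjusted p = 1.04e-03), and the methyltransferase *Icmt* (0.44, adjusted p = 2.41e-03) were higher and 3 were not called, with a median of 0.19 and beside 28.1% higher among all genes of at least 1 CPM.

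**Figure D4:**
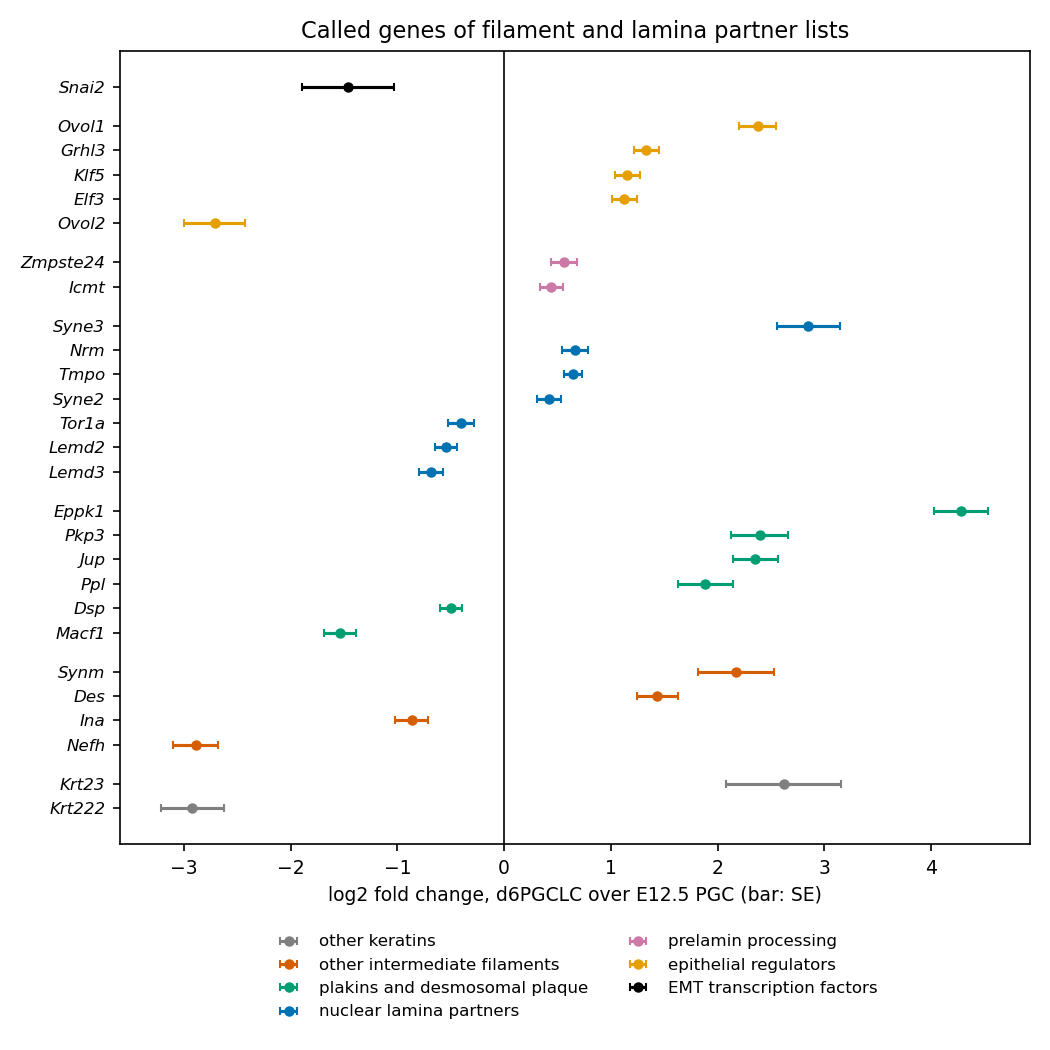
Log2 fold change (d6PGCLC over E12.5 PGC, with SE bars) of the named called genes from the lists of filament genes and partners, lamina partners and regulators, coloured by list. *Eppk1* is highest at 4.28, while the lamina partners lie on both sides of 0.

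The last lists hold regulators of the epithelial state. Of 11 epithelial regulators, which are transcription factors apart from the splicing regulator *Esrp1*, 4 were higher and 1 lower in d6PGCLCs. Their median log2 fold change was 0.54 among the 10 of at least 1 CPM, beside 28.1% higher and 25.6% lower among all genes at that level. *Ovol1* (2.37, adjusted p = 5.97e-10), *Grhl3* (1.33, adjusted p = 9.56e-09), *Klf5* (1.15, adjusted p = 1.07e-07) and *Elf3* (1.13, adjusted p = 1.69e-07) rose, and *Ovol2* fell (-2.71, adjusted p = 7.40e-08). Of 5 measured factors of the epithelial-mesenchymal transition, 3 were lower and 2 were not called, beside 15.4% lower among all genes. Their levels were mostly below 1 CPM, and 1 was lower with the filter on low counts. *Zeb1* and *Zeb2* of this list were not among the genes counted, and *Twist2* had 0 counts in all libraries. *Snai2*, the one that averaged at least 1 CPM over the 8 libraries, was at 0.612 against 1.77 CPM (log2 fold change -1.47, adjusted p = 8.46e-03).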

How the data were processed

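Counts of 4 d6PGCLC and 4 E12.5 PGC pools were analysed. The authors deposited counts that are not normalized, of uniquely mapped single-end reads from stranded poly(A) libraries, aligned with STAR to GRCm38 with ERCC sequences and counted with QuasR on the exons of an isoform chosen at random per gene. Other values in the deposited table are the exonic lengths of these isoforms. Genes with overlapping promoters were removed at random. Near-identical copies lose reads under such counting.

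RefSeq symbols matched 21907 of 21950 identifiers. In R 4.3.3, edgeR 4.0.16 was used with TMM, glmQLFit and glmQLFTest, with cell type as the only term, no filter, a prior count of 0.125 and Benjamini-Hochberg adjustment over all genes. Libraries within a group differed by more than sampling noise, and none was merged. Exact two-sided permutation tests were run on 4 ratios and shares of members, adjusted over the 4, and other ratios and sums were described without a test. For the ratio of *Krt19* to *Krt18*, 0.5 counts were added to both genes. The steps were tested on simulated data. DESeq2 1.42.0 and edgeR's likelihood ratio test were tried as alternatives, as were library size, DESeq2 size factors and upper quartile scaling, 2 filters on low counts (filterByExpr, and CPM above 1 in at least 3 libraries), a prior count of 2, a replicate block, an offset for exonic length, and leaving out libraries.

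The members and lists were chosen with earlier results of these data known. Named are, from each list, called genes that averaged at least 1 CPM over the 8 libraries, at most 4 per direction. Others are named as marker genes, as genes whose lack of a call is stated, or as stated where they stand. Oocyte and chromatin data were not analysed here.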

Additional observations from a re-analysis of the deposited data

Results flagged for a closer look

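Among 26 sets of 4 values, in which about 1.3 would stand out by chance, 2 held a pool far from the others of its group. *Lmnb1* was at 201 CPM in E12.5 PGC replicate 4 and at 188 to 189 CPM in the other PGC pools, a gap of 0.909 of the range, and this pool is the one with Y-linked counts. *Lmnb2* was at 164 CPM in d6PGCLC replicate 3 and at 136 to 141 CPM in the other d6PGCLC pools, a gap of 0.83 of the range. Both genes were called higher in d6PGCLCs without the pool in question.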

How the results depend on the processing

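*Krt7*, *Krt18*, *Vim*, *Nes*, *Lmnb1* and *Lmnb2* kept their direction and call in all 19 alternatives planned for each, and only *Krt18* lost its call in the added one, without d6PGCLC replicates 2 and 4. Their log2 fold changes ranged from 2.92 to 3.48, -0.94 to -0.58, -1.31 to -1.12, -1.97 to -1.77, 0.70 to 0.80 and 0.52 to 0.63. *Krt19* kept its call in 12 of 17 alternatives (1.43 to 5.58), *Krt8* stayed uncalled in 18 of 19 and *Lmna* in 16 of 17. The 5.58 of *Krt19* was fitted with only PGC pools at 0 counts and depends on the prior count. Neither *Krt19* nor *Lmna* passed the filters on low counts, so that 3 members were higher there. Leaving out a library gave 3 to 5 members higher and 3 to 4 lower. The replicate block gave 4 higher and 3 lower as in the fit without it, and 3708 higher and 3562 lower among all genes against 3532 and 3387. Same-numbered pools correlated at 0.328, 0.127, -0.05 and 0.0477. The best match was the same-numbered PGC pool for d6PGCLC replicates 1 and 4, and another pool for replicates 2 and 3. Whether the numbers pair the pools was thus not settled. The difference in the log2 ratio of *Krt18* to *Krt8* was -0.18 without d6PGCLC replicate 1, against 0.21 with it, and the cause was not tested. An exact test of 3 against 4 pools cannot go below p = 0.0571. The length offset moved the median of all genes by -0.07. Depth limits *Krt8*, *Krt19* and *Lmna*, whose counts were at most 31 in any library.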
